A study of Homo sapiens with 24 samples.

Results

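The DNAJ (HSP40) family was described here as every row of the count table whose gene name begins with DNAJA, DNAJB or DNAJC, with 4 antisense names left out, which gave 40 of the 18915 genes listed. The cells were HepG2, an established human hepatoma line, in 6 groups of 4 libraries, all exposed for 10 h. DMSO was the vehicle control, and single compounds were bortezomib at 50 nM, nelfinavir at 20 µM and ISRIB at 50 nM. The remaining groups had bortezomib together with nelfinavir or together with ISRIB, each compound at those doses. Bortezomib blocks the proteasome. Phosphorylation of the initiation factor eIF2α slows protein synthesis in stressed cells; nelfinavir increases it, and ISRIB blunts its effect on translation. The comparisons ask how the J-domain proteins respond to each compound, and whether nelfinavir or ISRIB changes their response to bortezomib.

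J-domain proteins are the partners that bring substrates to HSP70 chaperones: the J domain binds HSP70 and speeds its ATP hydrolysis, and the rest of each protein sets where it works and on what. In the cytosol they act with HSPA8 and the stress-induced HSPA1A and HSPA1B, in the endoplasmic reticulum (ER) with BiP, encoded by HSPA5, and in the mitochondrial matrix with mortalin, encoded by HSPA9. Cytosolic chaperone genes are classic targets of the heat shock factor HSF1, and ER chaperone genes of the unfolded protein response. From general knowledge of each protein, 18 of the 40 members were placed in the cytosol or nucleus and 7 in mitochondria. Another 5, DNAJB9, DNAJB11, DNAJC1, DNAJC3 and DNAJC10, were taken as the ER members, and 10 were placed on other membranes. The 10 include ER membrane proteins, some with a J domain facing the cytosol, so the 5 are not all members at the ER. After the filter on low counts 37 members could be tested, namely 16 cytosolic, 7 mitochondrial, 5 ER and 9 on other membranes. DNAJB13, DNAJC12 and DNAJC5G were too low, and none of them exceeded 2 CPM (a count scaled to library size, as described next) in any library.

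The libraries were made from the 3′ ends of mRNAs (QuantSeq FWD), so a count does not scale with transcript length, and levels are given as CPM scaled with TMM factors, edgeR's correction for a few genes taking a large share of the reads. Totals ran from 5154533 to 6943164 counts per library. All 7 hepatocyte genes looked up, among them ALB, AFP and APOB, were present in each library, while COL1A1 and COL3A1 of fibroblasts reached at most 5 and 3 counts. Counts on mitochondrially encoded genes took 21.5% ± 1.32 of the total in DMSO and 33.8% ± 1.20 in bortezomib, while adding nelfinavir or ISRIB to bortezomib gave 27.2% ± 2.26 and 36.1% ± 3.13 (SD, n = 4 each). Among the libraries of bortezomib with nelfinavir, replicates 1 and 2 stood apart from 3 and 4. Replicate 3 of bortezomib with ISRIB stood apart for several members. Most calls of members that changed without these libraries are also given without them. Values of genes outside the family are given only with all libraries. Only RNA relative to other RNA was measured, so fewer cells and less RNA per cell cannot be told apart.

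In DMSO the most counted member was DNAJC8, a spliceosome-associated protein, at 208 ± 4.25 CPM, followed by DNAJA1 at 196 ± 5.29, DNAJB1 at 151 ± 2.83 and DNAJC2 at 149.8 ± 10.5 (mean ± SD, n = 4 each). The last pair of these did not differ beyond the spread between libraries. The whole family took 0.247% to 0.265% of all counts in the DMSO libraries, 0.338% to 0.352% in bortezomib, 0.314% to 0.359% when ISRIB was added to it and 0.555% to 0.649% when nelfinavir was. DNAJB1 made up 6.89% to 7.38% of the family's counts in DMSO, 32.4% to 36.1% in bortezomib and 48.0% to 55.8% in bortezomib with nelfinavir. With ISRIB added to bortezomib it made up 29.0% to 34.6%. The share of all counts taken by the other members together overlapped DMSO in bortezomib and with ISRIB added to it. That share was above DMSO only with nelfinavir added to bortezomib, where DNAJB1 was still much of the rise.

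**Figure D1:**
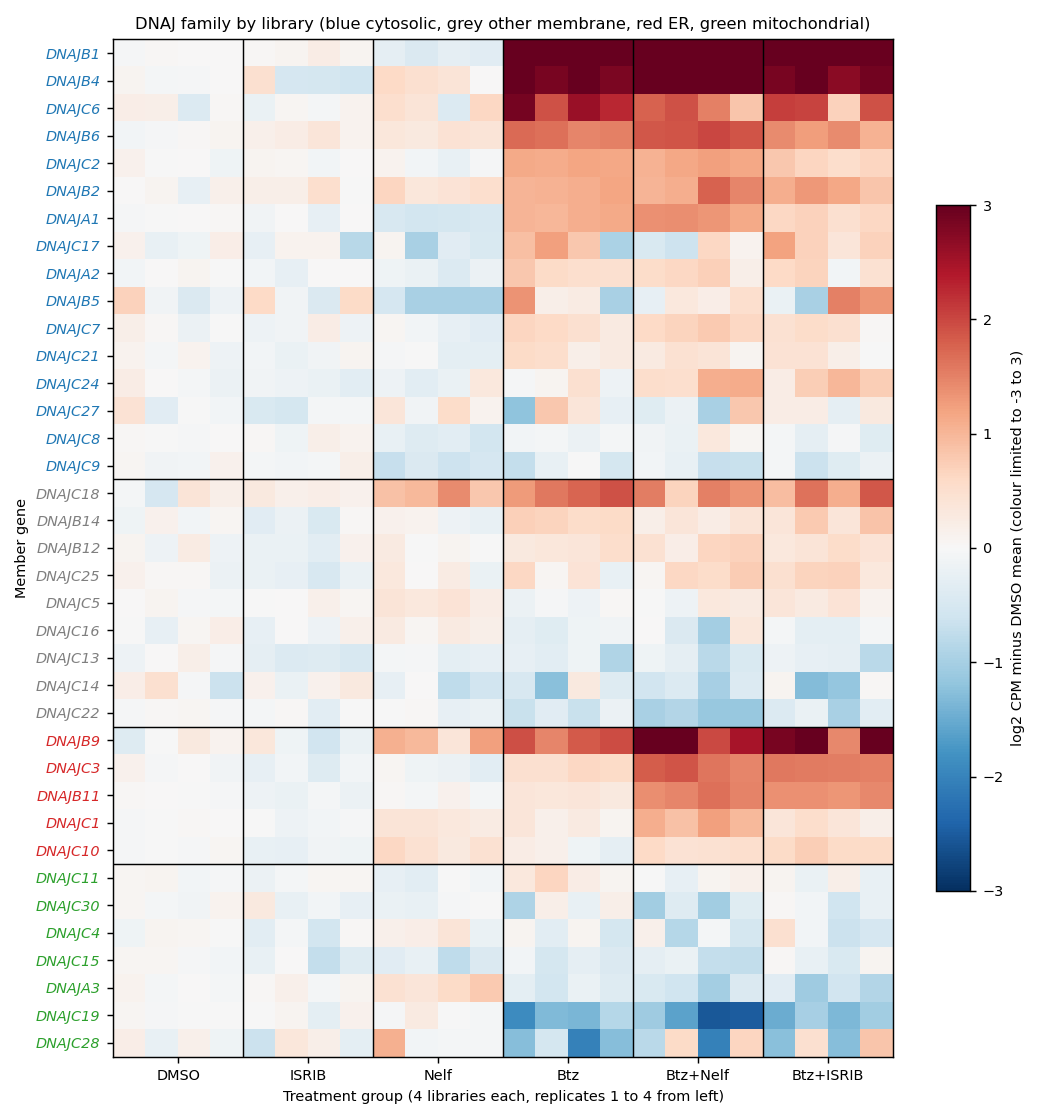
Level of the 37 tested members in each of the 24 libraries, as log2 CPM minus the mean of the 4 DMSO libraries, with genes in rows grouped by compartment and libraries in columns grouped by treatment. Colours stop at -3 and 3. The darkest rows in the 3 bortezomib groups are the cytosolic DNAJB1 and DNAJB4, the ER rows are darkest in the 2 combinations, and DNAJC19 is lower in all bortezomib groups.

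Under bortezomib alone, most cytosolic and ER members were called higher, while the mitochondrial members called lower were close to the share among all genes. Relative to DMSO, edgeR's quasi-likelihood test called 18 of the 37 members higher and 5 lower at a Benjamini-Hochberg adjusted p under 0.05, where 27.6% of the 12685 genes tested were called higher and 25.8% lower. By compartment, 10 of 16 cytosolic, 4 of 5 ER, 1 of 7 mitochondrial and 3 of 9 other membrane members were called higher, and 1, 0, 2 and 2 were called lower. The median log2 fold change was 0.69 over the cytosolic, 0.34 over the ER, -0.32 over the mitochondrial and -0.078 over the other membrane members, against 0.002 over all genes tested. The cytosolic median was 1.05 without DMSO replicate 1. The 4 bortezomib libraries lay above all 4 DMSO libraries for 18 of the 37 members, where 25.6% of all genes tested did so, and below them for 5, where 24.4% did. The 18 were those called higher, whereas DNAJC9 and DNAJC13, called lower, overlapped with DMSO. Only 3 members were called lower without DMSO replicate 1, DMSO replicate 4 or bortezomib replicate 4.

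These directions depend on how the libraries are scaled. With library totals in place of TMM factors, the median gene moved by -0.498 on the log2 scale, 9 members were called higher and 15 lower, and the share of higher calls among all called genes fell from 51.6% to 19.2%. With it, DNAJB11, DNAJC1, DNAJC11, DNAJC21 and DNAJB12 had negative values, the other called members kept their direction, and DNAJC3, DNAJA2, DNAJC7 and DNAJB14 no longer passed. The larger mitochondrial share in the bortezomib libraries moves with this scaling, and its part in the result was not tested.

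**Figure D2:**
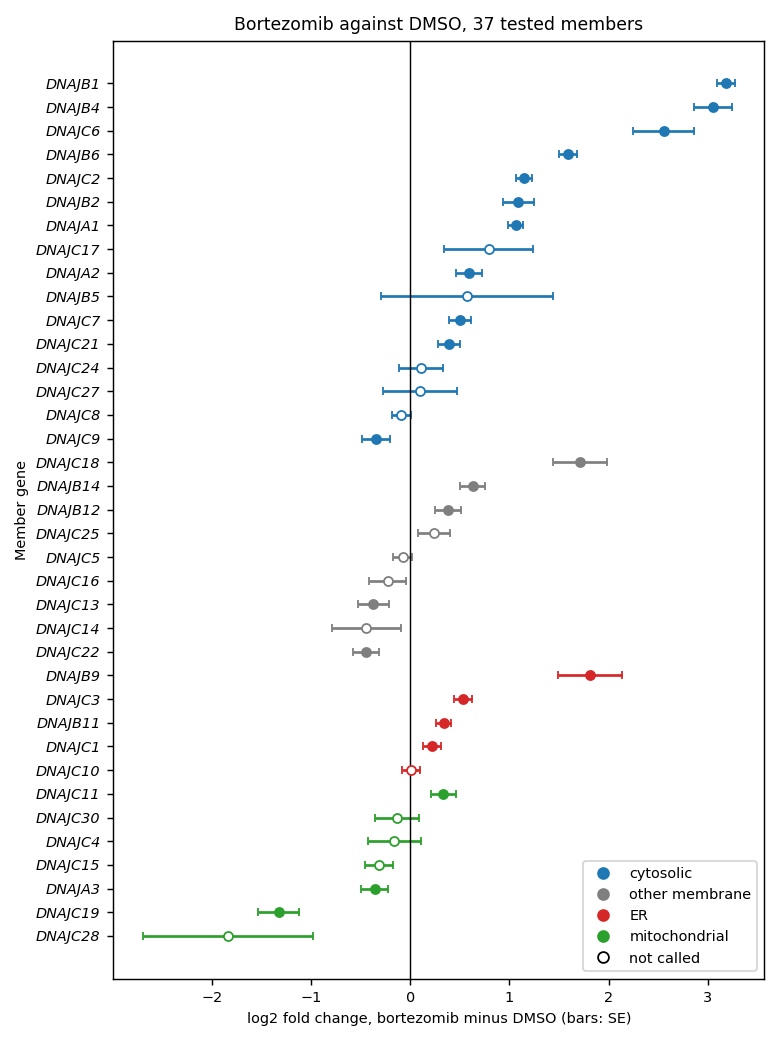
Log2 fold change of each tested member in bortezomib against DMSO (horizontal axis) with its standard error as a bar, ordered by compartment and value. Filled points were called at an adjusted p under 0.05 and open points were not; the cytosolic points run from DNAJB1 at 3.18 to DNAJC9 at -0.35, and the lowest called point is DNAJC19 at -1.33.

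DNAJB1, the major inducible HSP40 of the cytosol, changed most. Its level was 147, 154, 152 and 152 CPM in the DMSO libraries and 1311, 1371, 1324 and 1478 CPM in the bortezomib libraries, a 9.07-fold rise (log2 fold change 3.18, SE 0.092, adjusted p = 3.72e-24). With nelfinavir added to bortezomib it reached 3186, 3401, 4397 and 3682 CPM, each library above every library of bortezomib alone, a further 2.67-fold (log2 fold change 1.42, SE 0.085, adjusted p = 3.16e-14). With ISRIB added it stayed at 1232, 1337, 1455 and 1184 CPM, which overlapped bortezomib alone (log2 fold change -0.074, SE 0.084, adjusted p = 0.625). Nelfinavir without bortezomib went the other way, with 125, 112, 125 and 120.2 CPM, below all DMSO libraries (log2 fold change -0.33, SE 0.087, adjusted p = 0.00643), so that its effect differed between cells with and without bortezomib by 1.75 on the log2 scale (difference 1.75, SE 0.12, adjusted p = 1.11e-12). ISRIB alone gave 156, 159.8, 177 and 161 CPM and did not pass the test (log2 fold change 0.11, SE 0.087, adjusted p = 1). DNAJB1 is encoded on the minus strand of chromosome 19, from 14625581 to 14671203 in GRCh37, the build of the files.

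DNAJB4, a close relative of DNAJB1, was scarce in DMSO and rose nearly as much. It had 4.88, 4.43, 4.48 and 4.66 CPM in DMSO and 40.9, 35.3, 43.3 and 34.4 CPM in bortezomib, without overlap (log2 fold change 3.05, SE 0.19, adjusted p = 3.21e-15). Adding nelfinavir gave 67.0, 56.8, 52.9 and 42.8 CPM, higher on average although its lowest library lay among those of bortezomib alone (log2 fold change 0.51, SE 0.16, adjusted p = 0.0155). Adding ISRIB gave 35.0, 39.4, 31.8 and 36.5 CPM, which did not pass the test against bortezomib (log2 fold change -0.11, SE 0.16, adjusted p = 0.727). Without replicates 1 and 2 of bortezomib with nelfinavir, the change on adding nelfinavir was 0.36 and did not pass (adjusted p = 0.144). The 3′ part of DNAJB4 overlaps GIPC2 on the same strand, so reads there could have been split between both genes.

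DNAJB6, a suppressor of protein aggregation, moved in opposite directions with the co-treatments. Its levels were 41.5, 42.6, 44.8 and 46.5 CPM in DMSO and 142, 138, 122 and 126 CPM in bortezomib (log2 fold change 1.59, SE 0.093, adjusted p = 6.59e-16). They were 161, 162, 176 and 163 CPM with nelfinavir added (log2 fold change 0.33, SE 0.089, adjusted p = 0.00586) and 118, 104, 117 and 89.8 CPM with ISRIB added (log2 fold change -0.30, SE 0.090, adjusted p = 0.026). All libraries with nelfinavir lay above, and all with ISRIB below, those of bortezomib alone. The fall with ISRIB did not pass the test once bortezomib replicate 1 or 2, or bortezomib with ISRIB replicate 2 or 4, was left out (log2 fold change -0.35 to -0.23 over all libraries left out, adjusted p up to 0.131). That fall also did not pass with no filter on low counts (adjusted p = 0.0741) or in a fit of only the groups compared (adjusted p = 0.0944). Nelfinavir by itself also raised DNAJB6, to 55.1, 53.7, 58.8 and 57.4 CPM (log2 fold change 0.36, SE 0.093, adjusted p = 0.00474). The interaction of ISRIB with bortezomib passed the test (difference -0.51, SE 0.13, adjusted p = 0.0158). The last 500 bases of DNAJB6 match the pseudogene DNAJB6P1 at 99.2%, so some of its reads may have been lost or misassigned.

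DNAJA1, the type I HSP40 most counted in these cells, had its highest levels with nelfinavir added to bortezomib. DMSO libraries had 190.2, 193, 198 and 202 CPM and bortezomib libraries 395, 392, 417 and 434 CPM (log2 fold change 1.06, SE 0.078, adjusted p = 1.87e-13). Nelfinavir alone lowered it to 141, 134, 135 and 141 CPM (log2 fold change -0.51, SE 0.078, adjusted p = 7.1e-06), but added to bortezomib it gave 508, 511, 493 and 429 CPM (log2 fold change 0.24, SE 0.076, adjusted p = 0.0155). That last change was small, 1 of its 4 libraries lay among those of bortezomib alone, and it did not pass without replicates 1 and 2 of the combination (0.22, adjusted p = 0.0705). In a fit of only the groups compared it was 0.23 and did not pass either (adjusted p = 0.0854). ISRIB added to bortezomib lowered DNAJA1 to 304, 316, 274 and 303 CPM, below every library of bortezomib alone (log2 fold change -0.45, SE 0.077, adjusted p = 9.56e-05). The interaction with bortezomib passed the test for nelfinavir (difference 0.76, SE 0.11, adjusted p = 4.19e-06) and for ISRIB (difference -0.37, SE 0.11, adjusted p = 0.0399). The interaction for ISRIB was lost when any of 12 single libraries was left out, with an adjusted p of up to 0.0926 and values from -0.43 to -0.34. These were the 4 DMSO libraries, ISRIB replicates 1, 2 and 4, bortezomib replicates 3 and 4, and replicates 1, 3 and 4 of bortezomib with ISRIB. The interaction for ISRIB was also lost with no filter on low counts (adjusted p = 0.112).

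DNAJC2, which works at the ribosome on emerging chains, also rose under bortezomib and fell when ISRIB was added. Its DMSO libraries had 163, 148, 150.3 and 137 CPM, and its bortezomib libraries 328, 326, 340.5 and 335 CPM (log2 fold change 1.15, SE 0.081, adjusted p = 7.96e-14). With nelfinavir added the values were 308, 335, 349 and 332 CPM, which overlapped bortezomib alone (log2 fold change -0.004, SE 0.080, adjusted p = 0.979). With ISRIB added they fell to 263, 232, 217 and 233 CPM, below all libraries of bortezomib alone (log2 fold change -0.49, SE 0.080, adjusted p = 5.52e-05). The interaction with ISRIB passed the test (difference -0.50, SE 0.11, adjusted p = 0.00584). DNAJC2 overlaps PMPCB on the opposite strand at its 3′ end, and the strand setting of the counting is not given in the sources used here.

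DNAJC6 and DNAJB2 belong to the same group by size. DNAJC6, auxilin, strips clathrin from vesicles, and was at 2.90, 2.86, 1.82 and 2.57 CPM in DMSO and 20.3, 10.3, 16.7 and 13.2 CPM in bortezomib (log2 fold change 2.55, SE 0.30, adjusted p = 1.22e-08). It was the cytosolic member that fell when nelfinavir was added, to 9.30, 10.2, 7.66 and 4.69 CPM (log2 fold change -0.93, SE 0.28, adjusted p = 0.0127), and its interaction was negative (difference -1.27, SE 0.43, adjusted p = 0.0357). The fall was lost without bortezomib replicate 1 or replicate 4 of the combination (adjusted p up to 0.0711), and it was -0.62 (adjusted p = 0.188) without replicates 3 and 4 of the combination together. The interaction was lost without any of 9 single libraries, which were DMSO replicates 3 and 4, nelfinavir replicates 1, 2 and 4, bortezomib replicates 1 and 3, and replicates 3 and 4 of the combination (adjusted p up to 0.0919). ISRIB added to bortezomib gave 11.6, 11.1, 4.21 and 10.4 CPM, with replicate 3 well below the others (log2 fold change -0.70, SE 0.28, adjusted p = 0.0995). DNAJB2, which carries ubiquitin-binding motifs and hands clients to the proteasome, went from 13.6, 14.3, 11.3 and 15.1 CPM to 27.8, 28.1, 28.9 and 31.1 CPM under bortezomib (log2 fold change 1.09, SE 0.16, adjusted p = 4.91e-07). Nelfinavir alone also raised it, to 21.4, 17.3, 17.9 and 19.3 CPM (log2 fold change 0.48, SE 0.16, adjusted p = 0.0255), a call lost without DMSO replicate 1, 2 or 3 or nelfinavir replicate 1 or 4 (adjusted p up to 0.101).

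Among the remaining cytosolic members, DNAJA2, DNAJC7 and DNAJC21 rose under bortezomib by 0.60, 0.51 and 0.39 on the log2 scale (DNAJC21 was at -0.11 with library totals), and DNAJC9, a histone chaperone, fell by 0.35. DNAJC7 is a co-chaperone of HSP70 and HSP90 and DNAJC21 takes part in ribosome biogenesis. DNAJC21 did not pass without bortezomib replicate 1 (adjusted p = 0.052), and its 3′ end holds a repeat shared with many other genes. DNAJC9 did not pass without DMSO replicate 1 or 4 or bortezomib replicate 1 or 4 (adjusted p up to 0.104), and its value was -0.52 without bortezomib replicate 3. Nelfinavir alone lowered DNAJC9 to 30.0, 35.9, 31.4 and 34.3 CPM from 50.7, 45.6, 45.9 and 53.0 CPM (log2 fold change -0.57, SE 0.14, adjusted p = 0.00328). It also lowered DNAJC8, to 179, 159.8, 166 and 141 CPM from 213, 208, 203 and 208 CPM (log2 fold change -0.36, SE 0.097, adjusted p = 0.00619). With bortezomib present the nelfinavir libraries of DNAJC8 had 194, 180.3, 259 and 218 CPM against 196, 199.9, 184 and 201 CPM without it (log2 fold change 0.13, SE 0.098, adjusted p = 0.352), and the interaction passed the test (difference 0.49, SE 0.14, adjusted p = 0.0103). Without replicates 3 and 4 of the combination this interaction was 0.32 and did not pass (adjusted p = 0.102). DNAJC24, an enzyme cofactor of diphthamide synthesis, rose with nelfinavir added to bortezomib, from 6.84, 7.37, 9.93 and 6.27 to 10.2, 9.99, 15.1 and 15.4 CPM (log2 fold change 0.74, SE 0.22, adjusted p = 0.0114), and without replicates 3 and 4 of the combination it did not pass (0.41, adjusted p = 0.293). It also did not pass in a fit of only the groups compared (0.72, adjusted p = 0.0632). DNAJC8 and DNAJC9 have near copies elsewhere in the genome that are not rows of the count table, DNAJC8 overlaps AL353354.1 on its own strand, and DNAJC7, DNAJC9 and DNAJC24 overlap genes on the opposite strand. DNAJB5, DNAJC17 and DNAJC27 were not called in any comparison, and their group means did not exceed 4.05 CPM.

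The RefSeq promoter sequences (GRCh38.p14, 250 bases before and 50 after a start site) were searched for the letters bound by the heat shock factor, since the largest changes under bortezomib were in cytosolic members. Of the 40 members 37 had a window, and DNAJC1, DNAJC22 and DNAJC24 had none. Some had several windows, DNAJB1 and DNAJC19 with 3 each, so a count of members is not on the same scale as a share of windows. The inverted pair GAANNTTC was found in DNAJA1, DNAJB1, DNAJB6 and DNAJC6, and in 6.77% of all 35116 windows, while the pair TTCNNGAA was found in DNAJA1, DNAJB4, DNAJB6 and DNAJC15, and in 7.74% of all windows. Each pair reads the same on both strands. The arrangement of 3 units, GAANNTTCNNGAA, which contains both pairs, was found on either strand in DNAJA1 and DNAJB6 and in 0.49% of all windows. The stretches around the matches upstream of the start site are shown because they belong to DNAJB1, DNAJB4, DNAJB6 and DNAJA1, the HSP40 genes described above. Each is written 5′ to 3′ on the strand of its gene, with the matches in capitals.
DNAJB1, chr19:14518398-14518524, minus strand, 127 to 1 bases before the start: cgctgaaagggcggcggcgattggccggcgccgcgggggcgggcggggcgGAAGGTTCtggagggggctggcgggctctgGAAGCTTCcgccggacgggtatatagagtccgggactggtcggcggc
DNAJB4, chr1:78004791-78004898, plus strand, 148 to 41 bases before the start: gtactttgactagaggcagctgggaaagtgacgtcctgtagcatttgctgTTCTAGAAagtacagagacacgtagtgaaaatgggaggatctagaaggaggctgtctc
DNAJB6, chr7:157336823-157336935, plus strand, 181 to 69 bases before the start: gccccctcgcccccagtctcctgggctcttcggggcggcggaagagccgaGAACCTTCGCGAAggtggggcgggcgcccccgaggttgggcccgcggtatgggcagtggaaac
DNAJA1, chr9:33025025-33025132, plus strand, 248 to 141 bases before the start: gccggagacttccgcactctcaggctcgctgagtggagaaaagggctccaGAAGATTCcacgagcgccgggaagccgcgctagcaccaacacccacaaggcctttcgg

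DNAJB1 held 2 such pairs in this stretch, at 77 to 70 and at 47 to 40 bases before the start. In DNAJB6 the capitals run over the 3 units, 131 to 119 bases before the start. DNAJA1 held its 3 units after the start, at bases 4 to 16, outside the stretch printed. The pair of DNAJC6 also lay after a start, at bases 43 to 50. Of the 4 members with GAANNTTC, all were called higher under bortezomib, and of the 4 with TTCNNGAA, DNAJC15 was not. DNAJA1 and DNAJB6 are in both sets. Called higher were 18 of the 37 tested members and 27.6% of all genes tested. The share among all genes with these letters was not examined. A match is a description of the letters only, and DNAJC2, DNAJB2, DNAJB9 and DNAJC18, which also rose more than 2-fold under bortezomib, have none of these letters in their windows.

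**Figure D3:**
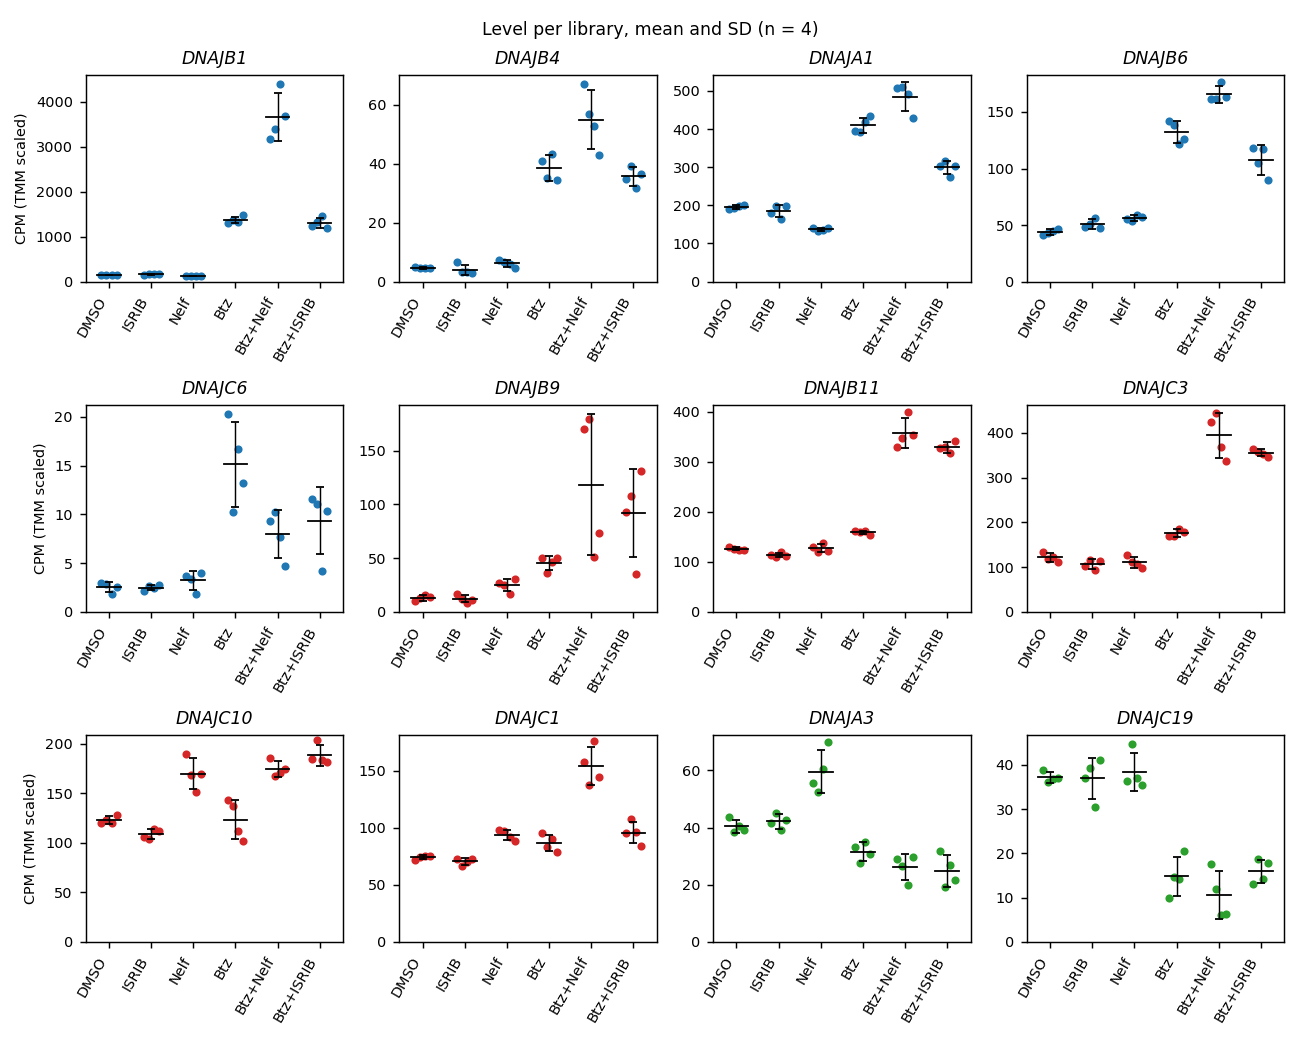
CPM (vertical axis, each panel from 0 with its own scale) of 12 members in the 6 groups, with 1 point per library and the mean and SD of the 4 libraries as lines. Blue panels are cytosolic, red ER and green mitochondrial members. DNAJB1 has a mean of 1371 CPM in bortezomib and 3666 CPM with nelfinavir added, whereas DNAJB11 and DNAJC3 are close to each other in both combinations.

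Of the 5 ER members, 4 were called higher with bortezomib alone, DNAJB11 and DNAJC1 among them with negative values under library totals, and most rose further once nelfinavir or ISRIB was added. When nelfinavir was added to bortezomib, 10 of the 37 members were called higher and 4 lower, against 15.6% and 13.4% of all genes tested, and the ER members were 5 of those 10. The 4 lower calls dropped to between 1 and 3 when single libraries were left out, with 1 left without replicate 4 of the combination. When ISRIB was added, 5 members were called higher and 3 lower, against 6.91% and 5.34% of all genes, and 4 of the 5 higher were ER members. The median log2 fold change of the ER members was 1.17 with nelfinavir added and 1.01 with ISRIB added, that of the cytosolic members 0.061 and -0.097, and that of all genes -0.017 and 0.007. Both comparisons share the bortezomib libraries. With ISRIB added the share of higher calls among all called genes was 56.4%, and 40.5% when library totals were used.

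DNAJB11 (ERdj3) and DNAJC3 (p58IPK) are lumenal partners of BiP, and both more than doubled when either compound was added to bortezomib. DNAJB11 had 129.9, 126, 124 and 124 CPM in DMSO and 161, 160.2, 161 and 154 CPM in bortezomib (log2 fold change 0.34, SE 0.075, adjusted p = 0.000278), a change of -0.16 with library totals. It reached 329.7, 347, 399 and 354 CPM with nelfinavir (log2 fold change 1.17, SE 0.075, adjusted p = 1.04e-13) and 328, 329, 316 and 342 CPM with ISRIB (log2 fold change 1.05, SE 0.075, adjusted p = 4.61e-12). Every library of both combinations lay above every library of bortezomib alone. Neither compound was called without bortezomib, with 129.6, 120.2, 138 and 121 CPM in nelfinavir (log2 fold change 0.013, SE 0.074, adjusted p = 0.943) and 114, 109, 120.0 and 111 CPM in ISRIB (log2 fold change -0.15, SE 0.074, adjusted p = 0.9). Accordingly the interaction passed the test for nelfinavir (difference 1.16, SE 0.11, adjusted p = 5.27e-10) and for ISRIB (difference 1.20, SE 0.11, adjusted p = 4.07e-09).

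DNAJC3 had 133, 118, 123 and 112 CPM in DMSO and 169, 169, 186 and 179 CPM in bortezomib (log2 fold change 0.53, SE 0.093, adjusted p = 1.19e-05). Its levels with nelfinavir added were 426, 446, 369 and 337 CPM (log2 fold change 1.17, SE 0.093, adjusted p = 1.76e-11), and with ISRIB added 365, 358, 353 and 346 CPM (log2 fold change 1.02, SE 0.093, adjusted p = 1.25e-09). As for DNAJB11, no library of either combination reached down to bortezomib alone. Nelfinavir without bortezomib gave 127, 111, 107 and 97.9 CPM (log2 fold change -0.13, SE 0.093, adjusted p = 0.368) and ISRIB 102, 115, 92.8 and 115 CPM (log2 fold change -0.19, SE 0.093, adjusted p = 0.895), neither of which passed the test. The interactions were large for nelfinavir (difference 1.30, SE 0.13, adjusted p = 5.28e-09) and for ISRIB (difference 1.21, SE 0.13, adjusted p = 1.29e-07). DNAJB11 lies on chromosome 3 from 186285192 to 186303589 and DNAJC3 on chromosome 13 from 96329393 to 96447242, both on the plus strand (GRCh37). The 3′ end of DNAJB11 overlaps an unnamed gene on its own strand (125 identical bases) that is not a row of the count table, and HRG-AS1 on the opposite strand.

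DNAJB9 (ERdj4), which binds the stress sensor IRE1 together with BiP, had the highest log2 fold change of the ER members under bortezomib but also the largest standard error. It rose from 9.64, 12.8, 15.8 and 13.7 CPM in DMSO to 49.8, 35.9, 46.3 and 50.4 CPM in bortezomib (log2 fold change 1.81, SE 0.33, adjusted p = 1.73e-05). With nelfinavir added the libraries fell into pairs, 170.1, 179, 51.1 and 73.0 CPM for replicates 1 to 4 (log2 fold change 1.37, SE 0.30, adjusted p = 0.000632), and the change was 0.50 and did not pass (adjusted p = 0.169) without replicates 1 and 2. With ISRIB added they were 93.3, 107, 35.4 and 131 CPM, replicate 3 lying below every library of bortezomib alone and the other 3 above (log2 fold change 1.01, SE 0.30, adjusted p = 0.0218). That call was lost without bortezomib replicate 2 or replicate 2 or 4 of the combination (adjusted p up to 0.0923), the change was 1.28 without replicate 3 of the combination, and DESeq2 gave an adjusted p of 0.0515. Nelfinavir alone gave 27, 25.3, 16.6 and 30.2 CPM, each library above DMSO (log2 fold change 0.94, SE 0.33, adjusted p = 0.0385), a call lost without DMSO replicate 1, 2 or 4 or nelfinavir replicate 1, 2 or 4 (adjusted p up to 0.127). DESeq2 did not call this rise with nelfinavir alone (adjusted p = 0.068). The interactions did not pass, with 0.43 for nelfinavir and 1.12 for ISRIB (SE 0.44 and 0.46), whereas without replicates 3 and 4 of bortezomib with nelfinavir the first was 1.01 and passed (adjusted p = 0.0406). The interaction with ISRIB passed without replicate 3 of bortezomib with ISRIB, at 1.39. It also passed with no filter on low counts (1.12, adjusted p = 6.05e-06), and without replicates 3 and 4 (adjusted p = 0.0416) or 1 and 2 (adjusted p = 0.0462) of bortezomib with nelfinavir, at 1.11 each.

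DNAJC10 (ERdj5), a disulfide reductase that prepares misfolded ER proteins for degradation in the cytosol, was not called under bortezomib alone. It had 120.4, 123, 120.2 and 128 CPM in DMSO and 144, 137, 112 and 102 CPM in bortezomib (log2 fold change 0.007, SE 0.092, adjusted p = 0.958); with library totals the change was -0.49 and passed as a fall (adjusted p = 6.32e-05). The addition of nelfinavir took it to 186, 167, 170.1 and 174 CPM (log2 fold change 0.50, SE 0.092, adjusted p = 0.000104), and the addition of ISRIB to 184, 204, 183 and 182 CPM (log2 fold change 0.61, SE 0.092, adjusted p = 1.79e-05). Nelfinavir did the same without bortezomib, at 189.7, 168, 151 and 169.8 CPM (log2 fold change 0.47, SE 0.090, adjusted p = 0.000239), so that its interaction was near 0 (difference 0.032, SE 0.13, adjusted p = 0.896), while ISRIB alone gave 106, 104, 114 and 112 CPM (log2 fold change -0.18, SE 0.091, adjusted p = 0.912) and its interaction passed the test (difference 0.79, SE 0.13, adjusted p = 0.000161).

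Of the 37 members with a window, DNAJC10 was the 1 that held TGACGTGG, a letter string of the unfolded protein response element. These letters, read on the minus strand as CCACGTCA, occur on either strand in 0.729% of all windows. The stretch around them is shown for that reason, 5′ to 3′ on the strand of the gene. The match is in capitals, 125 to 118 bases before the start. The ER stress element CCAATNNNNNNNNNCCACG (0.0769% of windows) and the amino acid response letters TGATGNAA (3.62%) were in no member's window, which says only that these letters are not within these 300 bases.
DNAJC10, chr2:182716082-182716189, plus strand, 175 to 68 bases before the start: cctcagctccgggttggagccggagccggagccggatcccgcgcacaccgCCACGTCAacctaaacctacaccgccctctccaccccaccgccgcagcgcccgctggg

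DNAJC1 (ERdj1), a membrane protein that recruits BiP to ribosomes at the translocon, was the ER member that differed between the combinations. Its levels were 72.0, 73.9, 75.6 and 75.1 CPM in DMSO and 95.0, 83.0, 90.0 and 78.5 CPM in bortezomib (log2 fold change 0.22, SE 0.091, adjusted p = 0.0382), a change of -0.27 with library totals. Nelfinavir added to bortezomib gave 157, 138, 176 and 145 CPM (log2 fold change 0.83, SE 0.091, adjusted p = 1.79e-08), and ISRIB added 95.3, 108, 96.0 and 84.2 CPM, which overlapped bortezomib alone (log2 fold change 0.15, SE 0.092, adjusted p = 0.323). The difference between the combinations passed the test (log2 fold change 0.68, SE 0.090, adjusted p = 7.43e-07), with no overlap of their libraries. Nelfinavir alone also raised it, to 97.7, 96.8, 91.8 and 88.0 CPM (log2 fold change 0.34, SE 0.089, adjusted p = 0.00628), and the interaction with bortezomib passed (difference 0.49, SE 0.13, adjusted p = 0.00519). The small rise under bortezomib was lost when any of 16 libraries was left out, all those of DMSO, bortezomib and both combinations; it was 0.13 (adjusted p up to 0.314 over these) without bortezomib replicate 1, and DESeq2 gave an adjusted p of 0.0807. A stretch of 117 bases of its 3′ end has a near copy (99.1%) in an unnamed gene that is not a row of the count table.

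**Figure D4:**
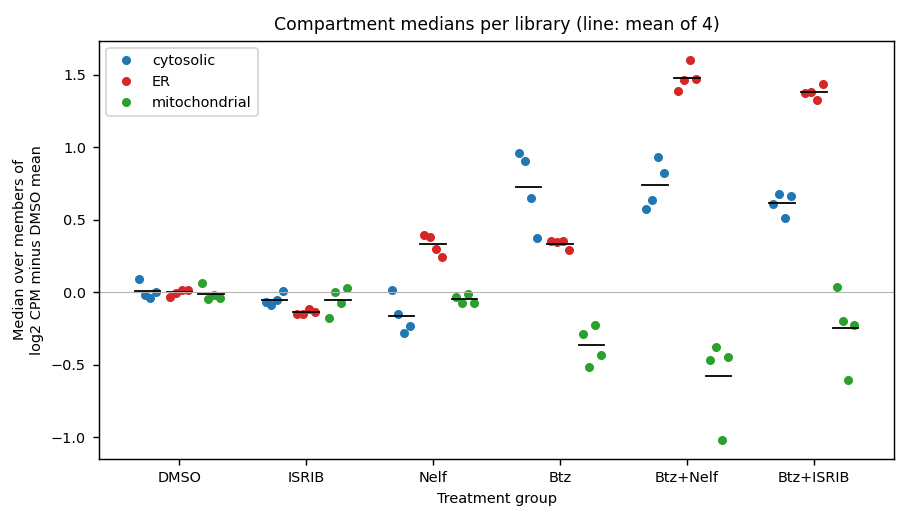
Median over the cytosolic (16), ER (5) and mitochondrial (7) members of log2 CPM minus the DMSO mean (vertical axis), with 1 point per library and a line at the mean of the 4 libraries of each group. The ER points lie between 0.29 and 0.36 in bortezomib and between 1.33 and 1.61 in the combinations, and the cytosolic points overlap between the 3 bortezomib groups.

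Between the combinations themselves, DNAJC1 was the ER member that passed the test in the fit of all libraries. Relative to bortezomib with ISRIB, bortezomib with nelfinavir had 6 members higher and 2 lower, against 13.2% and 11.3% of all genes, and 5 of the 6 were the cytosolic DNAJB1, DNAJA1, DNAJB6, DNAJB4 and DNAJC2. DNAJB1 differed most (log2 fold change 1.49, SE 0.086, adjusted p = 1.49e-14), followed by DNAJA1 (log2 fold change 0.70, SE 0.077, adjusted p = 2.59e-08), DNAJB6 (log2 fold change 0.62, SE 0.090, adjusted p = 3.07e-06), DNAJB4 (log2 fold change 0.62, SE 0.16, adjusted p = 0.00443) and DNAJC2 (log2 fold change 0.49, SE 0.080, adjusted p = 2.59e-05). In all 5 the libraries of the combinations did not overlap; those with nelfinavir lay higher for 7 of the 37 members and lower for 0, where 10.6% and 7.65% of all genes did so. The differences of DNAJB11, DNAJC3, DNAJC10 and DNAJB9 were 0.12, 0.15, -0.11 and 0.36, with SE 0.073, 0.091, 0.091 and 0.29. These did not all hold without pairs of libraries: DNAJC3 was higher with nelfinavir (0.31, adjusted p = 0.0271) and so was DNAJB9 (0.95, adjusted p = 0.00537) without replicates 3 and 4 of that combination, and DNAJB11 (0.26, adjusted p = 0.0279) without replicates 1 and 2. DNAJC3 also passed without replicate 4 of that combination alone, at 0.25, and DNAJB9 with no filter on low counts (0.40, adjusted p = 0.013). The call of DNAJB4 was lost without replicates 1 and 2 (0.48, adjusted p = 0.0555). The median over the cytosolic members, 0.17, rose to between 0.31 and 0.33 without replicate 1 or 2 of bortezomib with nelfinavir or replicate 3 of bortezomib with ISRIB.

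Of the 7 mitochondrial members, 4 were called in some comparison, and none was called higher when nelfinavir or ISRIB was added to bortezomib. DNAJC19, a component of the import motor at the inner membrane, had 38.9, 36.1, 36.8 and 37.1 CPM in DMSO and 9.84, 14.7, 14.2 and 20.5 CPM in bortezomib, a 2.51-fold fall (log2 fold change -1.33, SE 0.21, adjusted p = 1.61e-06). Its values were 17.5, 12, 6.09 and 6.38 CPM with nelfinavir added and 13.1, 18.6, 14.3 and 17.8 CPM with ISRIB added, neither of which passed the test against bortezomib (log2 fold change -0.51, SE 0.23, adjusted p = 0.099 and log2 fold change 0.11, SE 0.22, adjusted p = 0.811, in that order). Nelfinavir and ISRIB alone left it at 36.4, 44.8, 37.0 and 35.4 CPM and 37.0, 39.2, 30.5 and 41.0 CPM, overlapping DMSO. The combinations differed from each other by -0.62 (SE 0.23, adjusted p = 0.0499), but their libraries overlapped, and that call was lost when any of 19 single libraries was left out (adjusted p up to 0.227). The value was -0.94 without replicate 1 and -0.40 without replicate 3 of bortezomib with nelfinavir, and -0.086 without replicates 3 and 4. Part of the 3′ end of DNAJC19 has a near copy, DNAJC19P9, that is not a row of the count table.

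DNAJA3, the matrix HSP40 that works with mortalin, rose with nelfinavir alone, from 43.7, 38.5, 40.6 and 39.1 CPM in DMSO to 55.7, 52.3, 60.4 and 69.8 CPM (log2 fold change 0.56, SE 0.13, adjusted p = 0.00189). Under bortezomib it fell to 33.1, 27.5, 35.1 and 30.7 CPM (log2 fold change -0.36, SE 0.14, adjusted p = 0.0272), a call lost without DMSO replicate 1 (adjusted p = 0.0745). In the presence of bortezomib the addition of nelfinavir gave 29.2, 26.6, 19.8 and 29.6 CPM (log2 fold change -0.26, SE 0.14, adjusted p = 0.171), and the interaction passed the test (difference -0.82, SE 0.19, adjusted p = 0.0025). With ISRIB added to bortezomib it was at 31.8, 19.1, 26.9 and 21.7 CPM (log2 fold change -0.34, SE 0.15, adjusted p = 0.123).

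DNAJC15, another J protein of the import motor, fell with nelfinavir alone, from 81.5, 82.1, 76.6 and 74.3 CPM to 61.5, 67.8, 46.5 and 57.6 CPM (log2 fold change -0.43, SE 0.14, adjusted p = 0.0281). That call was lost without DMSO replicate 1 or 2 or nelfinavir replicate 3 or 4 (adjusted p up to 0.14). Bortezomib gave 74.6, 54.7, 65.1 and 58.1 CPM, on average lower, which did not pass (log2 fold change -0.32, SE 0.14, adjusted p = 0.0624). DNAJC11, an outer membrane protein tied to cristae organisation, had 37.3, 37.8, 33.7 and 34.8 CPM in DMSO, 44.5, 56.0, 41.8 and 38.2 CPM in bortezomib (log2 fold change 0.33, SE 0.12, adjusted p = 0.025) and 35.7, 30.2, 37.9 and 39.6 CPM with nelfinavir added (log2 fold change -0.33, SE 0.13, adjusted p = 0.0493). With library totals the first change was -0.17. The rise under bortezomib was lost without any of 14 single libraries (adjusted p up to 0.351) and the fall with nelfinavir without any of 23 (adjusted p up to 0.389). bortezomib replicate 2 carried most of both, which were 0.15 and -0.16 without it. DNAJC11 overlaps THAP3 on the opposite strand at its 3′ end. DNAJC4, DNAJC28 and DNAJC30 were not called in any comparison; DNAJC28 did not exceed 2.39 CPM in any library.

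Of the 9 members on other membranes, 6 were called in some pair of groups. DNAJC18, an ER membrane protein, rose under bortezomib from 2.79, 1.95, 3.92 and 3.31 CPM to 7.49, 9.31, 10.6 and 11.9 CPM (log2 fold change 1.71, SE 0.27, adjusted p = 2.27e-06) and with nelfinavir alone to 5.61, 6.07, 8.31 and 5.32 CPM (log2 fold change 1.08, SE 0.27, adjusted p = 0.00332). Together the compounds gave 9.09, 4.77, 8.84 and 7.88 CPM, which overlapped bortezomib alone (log2 fold change -0.35, SE 0.26, adjusted p = 0.316), and the interaction was negative (difference -1.43, SE 0.37, adjusted p = 0.0054). The ER membrane proteins DNAJB12 and DNAJB14, whose J domains face the cytosol, rose under bortezomib by 0.38 and 0.63 on the log2 scale, of which the first was -0.12 with library totals. DNAJB12 lost its call without DMSO replicate 2 or 4 or bortezomib replicate 2 or 4 (adjusted p up to 0.0997). Its call was also lost with upper-quartile factors (adjusted p = 0.0512) and with no filter on low counts (adjusted p = 0.08). DNAJC13, an endosomal protein, fell by 0.37, a call lost without DMSO replicate 3 or 4 or bortezomib replicate 4 (adjusted p up to 0.122). DNAJC22 fell in bortezomib from 60.3, 62.9, 63.8 and 59.7 CPM to 38.5, 48.5, 38.6 and 54.7 CPM (log2 fold change -0.45, SE 0.13, adjusted p = 0.00413) and further with nelfinavir added, to 31.3, 33.4, 27.9 and 28 CPM (log2 fold change -0.58, SE 0.14, adjusted p = 0.00175).

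DNAJC22 was also lower with nelfinavir than with ISRIB beside bortezomib (log2 fold change -0.59, SE 0.14, adjusted p = 0.00197), although the libraries of the combinations overlapped and the call was lost without replicates 3 and 4 of bortezomib with nelfinavir (-0.47, adjusted p = 0.0523). DNAJB14 was lower by -0.34 with nelfinavir added to bortezomib (adjusted p = 0.0463), a call lost without any of 18 single libraries (adjusted p up to 0.172), and its 3′ end matches an unnamed gene outside the count table at 97.2%. DNAJC5, the cysteine string protein of secretory vesicles, had 106, 112, 104 and 101 CPM in DMSO and 138, 132, 140.4 and 123 CPM in nelfinavir (log2 fold change 0.33, SE 0.094, adjusted p = 0.0104). It was at 93.5, 104, 95.0 and 108 CPM in bortezomib and 137, 126, 140.0 and 113 CPM with ISRIB added (log2 fold change 0.37, SE 0.097, adjusted p = 0.0105), a call lost without bortezomib replicate 1 (adjusted p = 0.0545). DNAJC14, DNAJC16 and DNAJC25 were not called in any comparison.

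Nelfinavir or ISRIB given alone changed fewer members than bortezomib. With nelfinavir against DMSO 8 members were called higher and 5 lower, against 10.4% and 8.84% of all genes tested; 3 of the 8 were ER members, and 4 of the 5 were cytosolic. With ISRIB against DMSO no member was called, and neither was any gene (0% higher and 0% lower) by edgeR's quasi-likelihood test, although 703 of the 12685 genes and 4 of the 37 members had an unadjusted p under 0.05; DESeq2 called 19 genes and no member. Bortezomib, nelfinavir and ISRIB were each compared with the same DMSO libraries. The ISRIB libraries lay above all DMSO libraries for 2 of the 37 members and below them for 4, where 3.49% and 4.52% of all genes did so, with log2 fold changes of 0.21 for DNAJB6 and 0.11 for DNAJB1, and of -0.15, -0.18, -0.28 and -0.39 for DNAJB11, DNAJC10, DNAJC25 and DNAJC13.

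The effect of nelfinavir differed between cells with and without bortezomib for 9 members, 6 upwards and 3 downwards, against 9.74% and 10% of all genes. These were DNAJB1, DNAJC3, DNAJB11, DNAJA1, DNAJC1 and DNAJC8 upwards and DNAJC18, DNAJC6 and DNAJA3 downwards. The effect of ISRIB differed for 3 members upwards, DNAJC3, DNAJB11 and DNAJC10, and for 3 downwards, DNAJB6, DNAJC2 and DNAJA1, against 2.93% and 1.89% of all genes. The 3 upward members are all in the ER and the 3 downward ones all cytosolic. Among all called genes 60.8% were upwards for ISRIB, and 49.4% when library totals were used, with the members' counts at 3 and 3 in both.

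**Figure D5:**
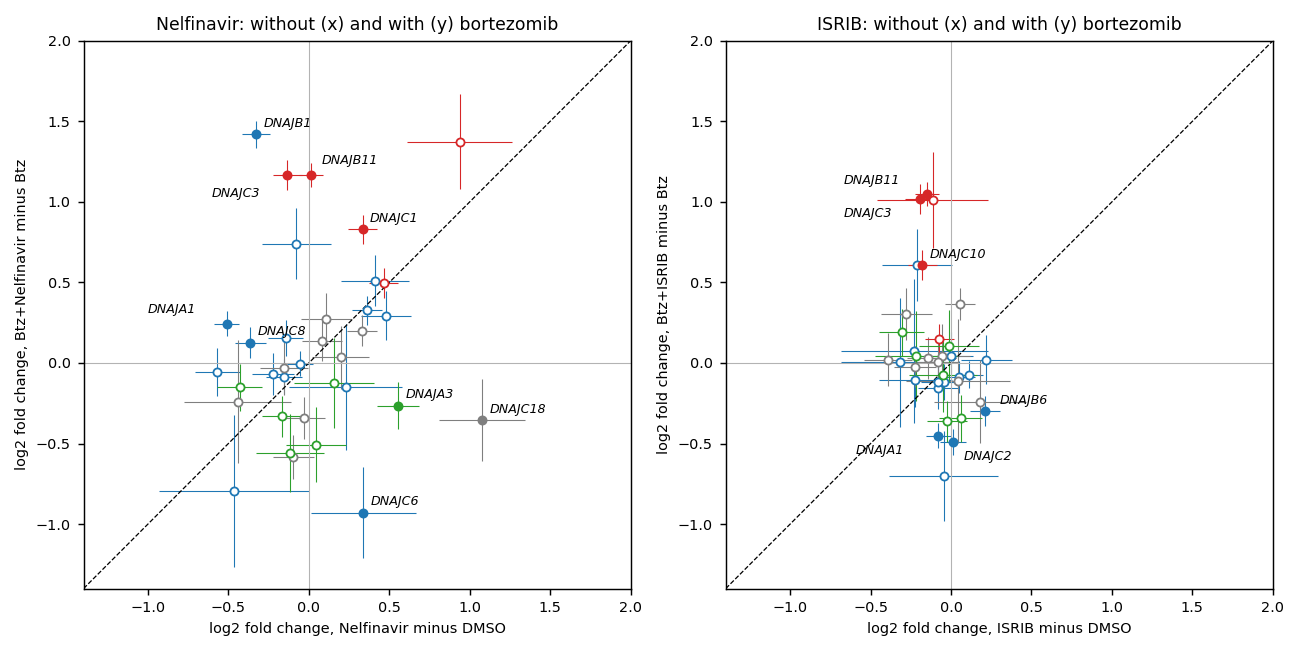
Log2 fold change of each member on adding nelfinavir (left) or ISRIB (right) in the absence of bortezomib (horizontal axis) and in its presence (vertical axis), with standard errors as bars and the line of equal change dashed. Filled and named points passed the test of the difference; blue is cytosolic, red ER, green mitochondrial and grey other membranes, and DNAJB5 and DNAJC28, with the widest errors, are left out. DNAJB1 lies at -0.33 and 1.42 on the left, and DNAJB11 and DNAJC3 lie above 1 on both vertical axes.

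The HSP70 partners were taken from a list written from general knowledge. HSPA5, which encodes BiP, stood at 1400, 1455, 1456 and 1526 CPM in DMSO and 2278, 2148, 1905 and 2204 CPM in bortezomib (log2 fold change 0.55, SE 0.098, adjusted p = 1.57e-05). It reached 11480, 12300, 16940 and 12950 CPM with nelfinavir (log2 fold change 2.65, SE 0.10, adjusted p = 3.14e-19) and 9768, 10210, 11310 and 8802 CPM with ISRIB (log2 fold change 2.23, SE 0.10, adjusted p = 4.13e-17). Its log2 fold changes were above those of all 5 ER members in both combinations, a difference that was not tested. HSPA8, the constitutive cytosolic HSP70, had 296, 324, 336 and 341 CPM in DMSO and 804, 793, 809 and 865 CPM in bortezomib (log2 fold change 1.33, SE 0.19, adjusted p = 3.62e-07). With nelfinavir added it had 752, 732, 349.7 and 446 CPM, all below bortezomib alone, with replicates 3 and 4 well below the others. With ISRIB added HSPA8 had 776, 684, 353 and 762 CPM, also all below bortezomib alone, with replicate 3 well below the others. HSPA9, mortalin, rose under bortezomib from 177, 171, 173 and 164 CPM to 373, 343, 321 and 352 CPM (log2 fold change 1.02, SE 0.10, adjusted p = 3.55e-10) and was at 301, 263, 202 and 296 CPM with ISRIB added (log2 fold change -0.39, SE 0.10, adjusted p = 0.0102), whereas the matrix partner DNAJA3 fell under bortezomib.

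By class, bortezomib raised 9 of the 10 cytosolic HSP70 genes, 4 of 7 cytosolic exchange factors (1 fell), 3 of 4 ER HSP70 and exchange factor genes and 2 of 3 mitochondrial ones, beside 27.6% of all genes higher and 25.8% lower. Nelfinavir alone lowered 6 of the 10 cytosolic HSP70 genes and raised none, beside 8.84% of all genes lower and 10.4% higher. Added to bortezomib, it raised 5 and lowered 2 of the cytosolic HSP70 genes, raised 1 cytosolic exchange factor, 3 of 4 ER genes and 2 of 3 mitochondrial ones, beside 15.6% of all genes higher and 13.4% lower. ISRIB added to bortezomib raised 1 and lowered 2 cytosolic HSP70 genes, lowered 1 cytosolic exchange factor, raised 2 of the 4 ER genes and lowered 1 of the 3 mitochondrial ones, beside 6.91% and 5.34% of all genes. With classes this small, shares of 1 or 2 genes say little against these backgrounds. The 10 listed as cytosolic HSP70 genes include HSPA4, HSPA4L and HSPH1, whose products are larger relatives that act as exchange factors. They also include HSPA6, with 0 counts in DMSO, 0 in nelfinavir and 2 in ISRIB. It had 184 in bortezomib, 5034 with nelfinavir added and 150 with ISRIB added. HSPA6 passed the filter on low counts only through the bortezomib groups, so its rise there adds no support. With nelfinavir alone it could not be called lower. HSPA1A and HSPA1B are near-identical, and reads may have gone to either.

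Among J-domain proteins that carry no DNAJ symbol, SEC63, which recruits BiP to the translocon, had 163, 158, 171 and 159.6 CPM in DMSO, 215, 183, 173 and 191 CPM in bortezomib (log2 fold change 0.23, SE 0.083, adjusted p = 0.0227) and 329, 322, 348 and 328 CPM with nelfinavir added (log2 fold change 0.80, SE 0.083, adjusted p = 6.41e-09). With ISRIB added it was at 235, 256, 236 and 218 CPM (log2 fold change 0.31, SE 0.083, adjusted p = 0.0105), and nelfinavir alone raised it to 238, 214, 210.2 and 196 CPM (log2 fold change 0.40, SE 0.082, adjusted p = 0.0005). GAK, a kinase with an auxilin domain, rose by 0.93 under bortezomib, without the later fall of DNAJC6 (0.12 with nelfinavir added, not called). HSCB, of iron-sulphur cluster assembly, was not called in any comparison.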

How the data were processed

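RNA from 24 HepG2 cultures, 4 biological replicates per group per the labels, was sequenced as QuantSeq FWD 3′ libraries. The authors trimmed reads with cutadapt 2.8, ran the nf-core RNA-seq workflow with STAR on hg19 and deposited raw counts per gene of the Ensembl GRCh37 annotation, limited to protein coding, lincRNA and antisense genes. How reads were counted (program, strand, molecular identifiers) is not given in the sources used here. No deposited column of per-sample values was left unused.

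Genes were kept with edgeR's filterByExpr at a minimum count of 5 and a total of 25, which are the thresholds the authors used. Libraries were scaled with TMM factors, and edgeR 4.0.16 (R 4.3.3) fitted the quasi-likelihood model to all 6 groups, so that they share 1 estimate of the spread. The 6 pairwise comparisons and both interactions (the difference of 2 fold changes) were tested over all 12685 genes, with Benjamini-Hochberg adjustment and a threshold of 0.05. Log2 CPM values used a prior count of 2. The fit was also run on counts simulated from the DMSO means, with few genes changed in the bortezomib group. That setting differs from the data, so it does not test the dependence on scaling described above.

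The members, compartments, partner list and motifs were chosen with earlier results of these data known. Full statistics went to members called with more than 2-fold change in any pair of groups, to the 5 ER members, to called mitochondrial members and to members called in an interaction; others are given by counts and values. One listed gene outside the family is not reported here. DNAJA2, DNAJB12, DNAJB14, DNAJC5, DNAJC7, DNAJC9, DNAJC13, DNAJC21, DNAJC22 and DNAJC24 are named with values outside that rule, after their values were seen. Near 3′ copies were counted at 97% identity over 80 bases of the last 500. Alternatives were DESeq2 1.42.0, other scalings (RLE, upper quartile, library totals), other filters, a replicate block, fits of only the groups compared, each library left out, and members on other membranes counted as cytosolic. Leaving out replicates 3 and 4, or 1 and 2, of bortezomib with nelfinavir was added after seeing the data. No 2 replicates agreed within sampling noise; the lowest chi-square per degree of freedom between replicates was 2.13.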

Additional observations from a re-analysis of the deposited data

Results flagged for a closer look

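For 12 of 222 sets of 4 libraries (1 member in 1 group), 1 library lay far from the other 3 by Dixon's test, where chance gives about 11.1 at 1 in 20. High libraries were ISRIB replicate 1 for DNAJB4, at 6.56 CPM against 2.96 to 3.15 CPM in the others, replicate 3 of bortezomib with nelfinavir for DNAJB6, at 176 against 161.1 to 163 CPM, and replicate 2 of bortezomib with ISRIB for DNAJC10, at 204 against 182 to 184 CPM. Nelfinavir replicate 2 was high for DNAJC19, at 44.8 against 35.4 to 37.0 CPM, and nelfinavir replicate 1 for DNAJC28, at 2.39 against 0.903 to 0.909 CPM, and for DNAJB5, at 0.119 CPM against 0, which is a single count. ISRIB replicate 3 was high for DNAJC7, at 149.6 against 114 to 119 CPM, and ISRIB replicate 4 for DNAJC9, at 54.9 against 46.3 to 46.9 CPM. Low libraries were bortezomib replicate 4 for DNAJB11, at 154 against 160.2 to 161 CPM, ISRIB replicate 3 for DNAJC25, at 18.4 against 21.8 to 22.4 CPM, and replicate 3 of bortezomib with ISRIB for DNAJC27, at 2.74 against 3.98 to 4.20 CPM, and for DNAJC6, at 4.21 against 10.4 to 11.6 CPM.

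The effect of nelfinavir differed between cells with and without bortezomib, by the test of the interaction, for DNAJB1 (1.75 on the log2 scale), DNAJC3 (1.30), DNAJB11 (1.16), DNAJA1 (0.76), DNAJC1 (0.49), DNAJC8 (0.49), DNAJA3 (-0.82), DNAJC6 (-1.27) and DNAJC18 (-1.43). The effect of ISRIB differed in the same way for DNAJC3 (1.21), DNAJB11 (1.20), DNAJC10 (0.79), DNAJA1 (-0.37), DNAJC2 (-0.50) and DNAJB6 (-0.51).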

How the results depend on the processing

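Scaling moved bortezomib against DMSO most. With library totals 9 members were called higher and 15 lower, the medians were -0.16 (ER), -0.81 (mitochondrial) and 0.20 (cytosolic), and the values of DNAJB11 (-0.16), DNAJC1 (-0.27), DNAJC10 (-0.49), DNAJC11 (-0.17), DNAJC21 (-0.11) and DNAJB12 (-0.12) changed sign. The ER median there was 0.30 with RLE factors and with DESeq2, 0.25 with upper-quartile factors, 0.26 with no filter, 0.31 with only the groups compared, and 0.29 without replicates 3 and 4 and 0.29 without replicates 1 and 2 of bortezomib with nelfinavir (0.288 and 0.289).

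When nelfinavir was added to bortezomib, 2 members were called lower with RLE factors, with no filter, with only the groups compared, and without replicates 3 and 4, and the ER median was 0.94 without replicates 1 and 2. Between the combinations 1 member was called lower with RLE factors, library totals, only the groups compared, or without replicates 3 and 4. The ER median of that difference was 0.31 without replicates 3 and 4 and 0.047 without replicates 1 and 2. The cytosolic one was 0.36 without replicates 1 and 2, and -0.009 with members on other membranes counted as cytosolic. Without replicates 1 and 2 the interaction of nelfinavir called 5 members lower. The ER median on adding ISRIB was 0.93 with library totals, and the mitochondrial median with nelfinavir alone was -0.035 with edgeR's default filter. For the changes not explained by fewer samples or genes, the cause was not tested.

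With each library left out in turn, the calls of lower members ranged from 3 to 7 for bortezomib, 1 to 3 for nelfinavir added and 1 to 2 between the combinations. For bortezomib the medians ranged from 0.28 to 0.35 (ER), 0.64 to 1.05 (cytosolic) and -0.43 to -0.30 (mitochondrial). On adding ISRIB they ranged from 0.79 to 1.02 (ER) and from -0.17 to 0.15 (mitochondrial), between the combinations from 0.14 to 0.25 (ER) and 0.13 to 0.33 (cytosolic), and for nelfinavir alone from -0.091 to 0.082 (mitochondrial).

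Replicate numbers were not taken to pair the libraries, since no label gives them a meaning. Deviations from the group means correlated above 0.1 for 10 of 60 same-numbered pairs and 7 of 180 others, a larger share of the first. Of 24 libraries, 14 were closest on average to their own number. This is a hint of shared variation from the data and not from the design, and the main fit leaves any such pairing out. Replicate 3 was the lowest library of HSPA8 in ISRIB, nelfinavir and both combinations, and of DNAJB9 in nelfinavir and both combinations. For neither gene was it the lowest in DMSO or bortezomib, and whether the replicates share a cause was not tested. With a replicate block the ER median on adding ISRIB was 0.92. Members called with the block and without it were 24 and 23 for bortezomib, 13 and 13 for nelfinavir, 0 and 0 for ISRIB, 13 and 14 with nelfinavir added, 8 and 8 with ISRIB added, 10 and 8 between the combinations, and 10 and 9 and 6 and 6 for the interactions. DESeq2 called 24, 12, 0, 14, 8, 8, 11 and 6 in that order. Depth limits the members of few counts, above all DNAJB5, whose groups held 1 to 13 counts in all.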
